A study of Mus musculus with 6 samples.

Results

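The genes described here are 34 mouse genes of antigen presentation, taken by symbol over the class I and class II pathways. They cover class I and class II chains, nonclassical class I, peptide loading and immunoproteasome genes. All 34 symbols matched an identifier among the 56691 gene rows of each library, and 33 of them were among the 14856 genes abundant enough to be tested. H2-Oa, a subunit of the H2-O modulator of class II loading, was the one that was not. Of the 34 genes, 21 belong to the class I side, 11 to the class II side, and Cd1d1 and Mr1 to neither. On GRCm38, 22 of the 34 lie on chromosome 17, which carries the mouse major histocompatibility complex, among them H2-K1 (ENSMUSG00000061232.17, 33996017 to 34000347, minus strand) and H2-Aa (ENSMUSG00000036594.16, 34282744 to 34287823, minus strand). B2m (ENSMUSG00000060802.9) lies on chromosome 2, from 122147686 to 122153083 on the plus strand.

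RNA was sequenced from bone marrow-derived macrophages, phagocytes grown in culture from the marrow of 3 mice named a, b and c. On day 6 of culture the cells of each mouse received 2 µM thiothixene, an antipsychotic that blocks dopamine receptors, or the solvent DMSO, for 24 h. There were therefore 3 thiothixene libraries and 3 DMSO libraries, a pair from each animal. The sources used here do not give strain, genotype, sex, age or any activating stimulus such as interferon gamma.

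Class I molecules are heavy chains bound to B2m that carry peptides from the cytosol, cut by the proteasome and pumped into the endoplasmic reticulum by the TAP transporter. Class II molecules carry peptides made in endosomes, where the invariant chain Cd74 holds the groove until H2-DM exchanges its remnant for antigen. Nlrc5 is the transactivator of class I genes and Ciita that of class II genes, and both act at a shared promoter module of S, X and Y boxes bound by RFX, CREB and NF-Y factors. In macrophages both sets are known to be induced by interferon gamma, and class II is low in resting cells.

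The shared promoter module was read from the sequences of RefSeq (GRCm38.p6) around each gene's start. Of the 34 genes, 26 matched a window, which runs from 250 bases before the start to 50 bases from it on. The 150 bases before the start are given for 2 class II chains, 2 class I heavy chains and B2m, 5′ to 3′ on the gene's own strand, because they show the letters that the class I and class II promoters have in common. Capitals mark TGACG, the core of the X2 box, CCAAT or its reverse ATTGG, the core of the Y box, and GAAANNGAA, a core of interferon response elements. In H2-Aa the TGACG matches of both strands overlap.
H2-Aa (chr17:34287824-34287973, minus strand): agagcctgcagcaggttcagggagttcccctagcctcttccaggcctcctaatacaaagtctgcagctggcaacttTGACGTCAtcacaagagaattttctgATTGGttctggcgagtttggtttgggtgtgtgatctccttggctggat
H2-Eb1 (chr17:34305717-34305866, plus strand): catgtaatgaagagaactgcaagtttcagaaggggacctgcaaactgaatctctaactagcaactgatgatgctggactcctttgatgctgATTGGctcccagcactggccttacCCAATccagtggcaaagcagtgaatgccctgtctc
H2-K1 (chr17:34000348-34000497, minus strand): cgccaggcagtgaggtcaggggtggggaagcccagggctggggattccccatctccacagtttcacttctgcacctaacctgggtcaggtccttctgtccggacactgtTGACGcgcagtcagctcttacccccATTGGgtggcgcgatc
H2-D1 (chr17:35262944-35263093, plus strand): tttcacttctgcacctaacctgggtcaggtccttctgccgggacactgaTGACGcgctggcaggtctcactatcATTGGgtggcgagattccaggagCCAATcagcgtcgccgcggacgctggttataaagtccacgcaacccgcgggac
B2m (chr2:122147537-122147686, plus strand): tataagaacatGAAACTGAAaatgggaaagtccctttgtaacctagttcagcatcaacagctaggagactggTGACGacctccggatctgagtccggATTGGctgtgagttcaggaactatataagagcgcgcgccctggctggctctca

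In H2-Aa, H2-K1, H2-D1 and B2m a TGACG is followed by ATTGG at nearly the same distance, in the first at -74 and -48 and in B2m at -78 and -53 from the gene's start. In H2-D1 the pair begins at -101 and -76, and in H2-K1 at -41 and -16. H2-Eb1 has the ATTGG, at -59, and no TGACG in its window. With the first letters 24 to 26 bases apart, the ordered pair was found in 6 of 26 genes, the others being H2-Q7 and H2-M3, and in 0.201% of all 32851 windows. This spacing was looked for after the sequences had been seen, and the class I heavy chain promoters are related copies.

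Searched on both strands, CCAAT was present in 19 of 26 genes, 12 of 17 on the class I side and 7 of 8 on the class II side, against 37.4% of all windows. TGACG was present in 12 of 26, 10 of them on the class I side and 2, H2-Aa and Ifi30, on the class II side, against 20.8%. GAAANNGAA was found in 5 of 26, all on the class I side (B2m, H2-T22, H2-T23, Erap1 and Psme1), against 8.56%. TTCNNNGAA, a core of STAT sites that reads the same on both strands and can share letters with GAAANNGAA, was found in H2-DMb2, H2-M3 and Psmb8, against 8.3%. The windows of Psmb9 and Tap1, which are transcribed away from each other, share 275 bases, so their matches are the same bases. A match is a run of letters and not a measured binding site.

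The macrophages carried abundant class I transcripts and few class II transcripts. Over all 6 libraries the mean level in CPM per kb of exon (counts scaled to library size, divided by exon length) was 1850 for B2m, 517 for H2-D1 and 298 for H2-K1. It was 55.2 for Cd74, 4.54 for H2-Eb1, 4.40 for H2-Ab1 and 3.19 for H2-Aa. The class II transactivator Ciita stood at 0.0885 CPM per kb, the class I transactivator Nlrc5 at 7.21 CPM per kb. The lysosomal thiol reductase Ifi30, at 109 CPM per kb, was the most abundant gene of the class II side. In such bulk samples fewer cells of a type and less RNA per cell cannot be told apart.

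**Figure D1:**
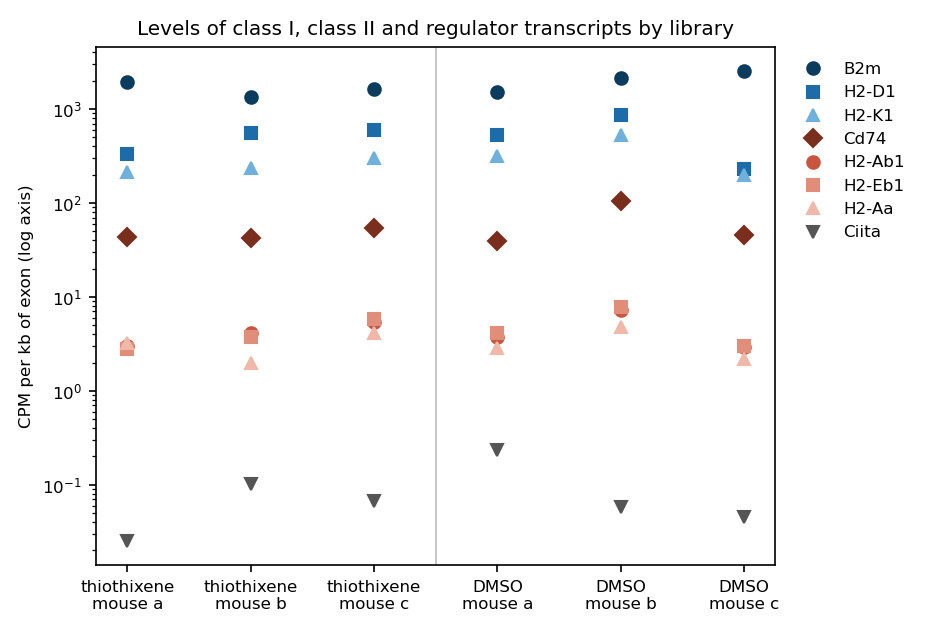
Level of B2m, the class I heavy chains H2-D1 and H2-K1, Cd74, the 3 class II chains and Ciita in each library, in CPM per kb of exon on a log axis, with thiothixene libraries left of the line and DMSO libraries right of it. B2m, H2-D1 and H2-K1 lie at the top, Cd74 at a mean of 55.2 CPM per kb and the class II chains lower (means of 3.19 to 4.54), and for every gene the 2 treatments overlap.

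The mouse b and mouse c DMSO libraries were most often the extremes for these genes. The mouse a thiothixene library was next to that of mouse c DMSO, and was the lowest for 6 genes, where 10.7% of all tested genes were lowest in it. That of mouse b was the highest of 6 for 24 of 33 tested genes, where 33.9% of all tested genes were highest in it, and that of mouse c the lowest for 17, where 31.7% of all tested genes were. The mouse b DMSO library also had the fewest counts in genes, 10472349, while the other five held 18548095 to 22297520. Its deviations ran against exon length, with a Spearman correlation of -0.45 over the 33 genes and -0.37 over 14565 genes, and along with GC content, at 0.44 and 0.45. The mouse c DMSO library ran against GC content, at -0.43 and -0.62, as did the mouse a thiothixene library, at -0.58 and -0.52. Both also had the largest shares of unaligned reads, 4.516% and 4.978%, where the other libraries had 1.85% to 2.31%. The mouse b DMSO library had the largest shares of reads aligned more than once and of ambiguous reads, 4.067% and 3.024%. Whether these shares had a part in the genes' values was not tested. The mouse b and mouse c thiothixene libraries ran along with GC content, at 0.14 and 0.21 over the 33 genes. Over 14565 genes they stood at 0.37 and 0.43, near the mouse b DMSO library. The mouse a DMSO library stood at 0.18 over either set. These correlations are descriptions across genes that share a library. For many of the genes described in detail, values without the mouse b DMSO library stand beside the main ones.

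No difference passed the test in any of the 33 genes. At an adjusted p of 0.05 in edgeR's quasi-likelihood test 0 of 33 passed, where the share over all tested genes was also 0% (0 of 14856, smallest adjusted p 0.9998). At an unadjusted p under 0.05 the count was again 0 of 33, while 0.841% of all tested genes were lower and passed that mark, 256 genes in both directions together. The smallest unadjusted p among the 33 was 0.121, for Psme1. In no gene did the libraries of one treatment all lie below or above those of the other, against 2.77% of all tested genes with all thiothixene libraries lower and 3.88% with all higher. The adjusted p was 1 for each of the 33.

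By direction alone, 28 of 33 log2 fold changes (thiothixene over DMSO) were below 0, a share to be read against 54.7% of all tested genes. Their median was -0.29, and the median of all tested genes was -0.04. The median was -0.29 over the 21 class I genes, of which 19 were below 0, and -0.30 over the 10 tested class II genes, of which 9 were. The genes share the same 6 libraries, so this count is no measure of independent events. It rested on the mouse b DMSO library: without that library 13 of 33 were below 0, against 48.6% of all tested genes in that fit. With offsets for GC content and length fitted to each library 27 of 33 were below 0, against 59.2% of all tested genes. The medians were then -0.31 for class I, -0.26 for class II and -0.08 for all tested genes.

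**Figure D2:**
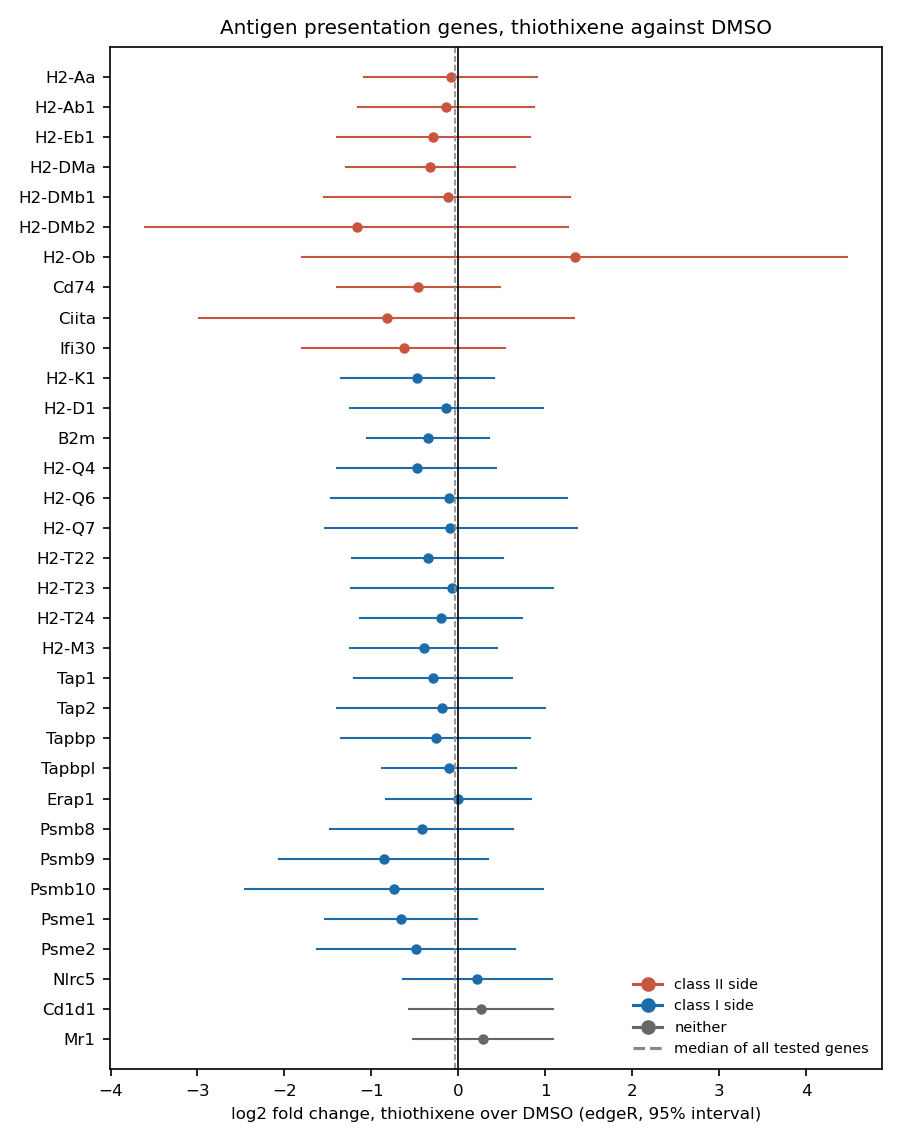
Log2 fold change of the 33 tested genes, thiothixene over DMSO, with its 95% interval from edgeR's quasi-likelihood fit (3 libraries a treatment). All intervals include 0; 28 of 33 points lie below 0, and the dashed line is the median of all tested genes, -0.04.

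Of the 3 class II chains, H2-Aa and H2-Ab1 form the H2-A molecule, and H2-Eb1 is the beta chain of H2-E, whose alpha chain is not among the genes described here. H2-Aa, the alpha chain of H2-A, had 12.2, 7.52 and 15.5 CPM with thiothixene in mice a, b and c, against 10.8, 18.3 and 8.36 CPM with DMSO. Thiothixene from mouse b and DMSO from mouse c were the lowest and DMSO from mouse b the highest, so the groups overlap. H2-Ab1, its beta chain, had 7.79, 10.6 and 13.8 CPM with thiothixene and 9.65, 18.4 and 7.59 CPM with DMSO. H2-Eb1 had 5.41, 7.19 and 11.2 CPM with thiothixene and 8.08, 15.3 and 5.80 CPM with DMSO. In both, DMSO from mouse b was the highest library and the groups overlap. Their log2 fold changes were -0.08 (SE 0.43), -0.14 (SE 0.44) and -0.29 (SE 0.48), with 95% intervals from -1.08 to 0.91, from -1.15 to 0.87 and from -1.39 to 0.82. Without the mouse b DMSO library all 3 were above 0, at 0.29, 0.32 and 0.20.

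Cd74, the invariant chain, had 73.1, 70.9 and 90.6 CPM with thiothixene, against 66.4, 178 and 77.3 CPM with DMSO. A single DMSO library, that of mouse b, was above all others, and the log2 fold change was -0.46 (SE 0.41; 95% interval -1.39 to 0.48). Without that library it was 0.12. Set against the summed class II chains per kb, Cd74 gave a ratio of 4.23 ± 0.644 with thiothixene and 4.89 ± 1.06 with DMSO (SD, n = 3 each). The ratio is a comparison of transcript levels per length, and its groups overlap.

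H2-DM, the peptide exchange factor, pairs the alpha chain H2-DMa with a beta chain, H2-DMb1 or H2-DMb2. H2-DMa averaged 19.5 ± 5.62 CPM with thiothixene, against 24.5 ± 10.6 CPM with DMSO (mean ± SD, n = 3 each). H2-DMb1 had 9.40, 22.5 and 22.8 CPM with thiothixene, against 16.7, 36.7 and 6.66 CPM with DMSO. Their log2 fold changes were -0.32 (SE 0.42) and -0.12 (SE 0.62), and in both the groups overlap. H2-DMb2 was scarce, with 24, 15 and 15 counts in the thiothixene libraries and 61, 30 and 2 counts in the DMSO libraries. Its mouse a and mouse b DMSO libraries lay above, and that of mouse c below, every thiothixene library, and the log2 fold change was -1.17 (SE 1.06; 95% interval -3.60 to 1.26). It was -1.75 without the mouse c DMSO library and -0.65 without that of mouse b.

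H2-O, which restrains H2-DM and is typical of B cells, was near the limit of detection. H2-Oa had 0, 4 and 2 counts with thiothixene and 6, 9 and 0 counts with DMSO. H2-Ob had 12, 13 and 10 counts with thiothixene, against 14, 0 and 0 counts with DMSO. The mouse a DMSO library was as high as the thiothixene libraries, and those of mice b and c held none. For counting error only, a count of 0 (limit of 3 counts) allows 0.335 CPM in the first of these and 0.128 CPM in the other. H2-Ob had the highest log2 fold change of the 33 genes, 1.34 (SE 1.37; 95% interval -1.80 to 4.47), with an unadjusted p of 0.355 in edgeR. It was 0.90 without the mouse b DMSO library and 0.71 without that of mouse c. Without the mouse a DMSO library it was 6.46 (unadjusted p of 0.0164 in edgeR); the DMSO libraries that remain were both at 0, so that fitted value depends on the prior count and is no bound. With the mouse b and mouse c DMSO libraries left out it was -0.07.

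Ciita, the transactivator that class II transcription depends on, had 5, 18 and 13 counts with thiothixene, against 50, 5 and 10 counts with DMSO. Scaled to library size these were 0.237, 0.966 and 0.641 CPM with thiothixene, against 2.23, 0.558 and 0.427 CPM with DMSO. DMSO from mouse a was the highest library, thiothixene from mouse a the lowest and DMSO from mouse c next to it, so the groups overlap. The log2 fold change was -0.82 (SE 0.94; 95% interval -2.98 to 1.33). Without the mouse b DMSO library it was -1.11. With both libraries of mouse a left out it was 0.72, and with both of mouse b left out -1.59. Its direction is therefore not settled by these counts. The order of Ciita over the libraries was not that of the class II chains, which were highest in the mouse b DMSO library, where Ciita, at 0.558 CPM, was below 3 of the other libraries.

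Ifi30, which reduces disulfide bonds of antigens in lysosomes, had 62.3, 103 and 86.8 CPM with thiothixene, against 92.7, 240 and 58.9 CPM with DMSO. The mouse b DMSO library was again the highest and that of mouse c the lowest. The log2 fold change was -0.63 (SE 0.51; 95% interval -1.80 to 0.54), with an unadjusted p of 0.248 in edgeR. It was 0.15 without the mouse b DMSO library and -0.98 without that of mouse c.

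On the class I side, H2-K1 and H2-D1 are the classical heavy chains. H2-K1 had 632, 688 and 877 CPM with thiothixene, against 925, 1540 and 581 CPM with DMSO. H2-D1 had 852, 1430 and 1530 CPM with thiothixene, against 1360, 2240 and 590 CPM with DMSO. For both the mouse b and mouse c DMSO libraries were the extremes, highest and lowest, with all thiothixene libraries between them. The log2 fold changes were -0.47 (SE 0.38; 95% interval -1.35 to 0.41) for H2-K1 and -0.14 (SE 0.48; 95% interval -1.24 to 0.97) for H2-D1. Without the mouse b DMSO library they were -0.04 and 0.39.

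B2m, the light chain of every class I molecule, followed another order. It had 1670, 1150 and 1390 CPM with thiothixene, against 1310, 1840 and 2210 CPM with DMSO. Here the mouse c DMSO library, the lowest for both heavy chains, was the highest. The log2 fold change was -0.35 (SE 0.31, 95% interval -1.05 to 0.35). It was -0.33 without the mouse b DMSO library and -0.16 without that of mouse c. B2m has a GC content of 41.2%, the lowest of the 34 genes, against 54.3% for H2-K1 and 55.9% for H2-D1.

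The 7 class Ib genes encode nonclassical class I chains and were all below 0, between -0.48 and -0.07 on the log2 scale. H2-T23, which encodes Qa-1, the ligand of NKG2A receptors, was the most abundant and had 51.4, 70.1 and 116 CPM with thiothixene, against 81.8, 132 and 35.1 CPM with DMSO. Its groups overlap and its log2 fold change was -0.07 (SE 0.51). H2-Q4 averaged 43.7 ± 9.71 CPM with thiothixene and 61.0 ± 26.2 CPM with DMSO, H2-T22 43.3 ± 8.65 and 55.4 ± 25.1 CPM, and H2-M3, which presents formylated peptides, 23.3 ± 4.79 and 30.8 ± 11.2 CPM (SD, n = 3 each). Their log2 fold changes were -0.48 (SE 0.40), -0.35 (SE 0.38) and -0.40 (SE 0.37). Without the mouse b DMSO library H2-Q4 stood at -0.20 and H2-M3 at -0.18, while H2-T22, H2-T23 and H2-Q7 were above 0, at 0.06, 0.44 and 0.65, so 4 of the 7 class Ib genes were below 0. H2-T24 was lower with thiothixene in 3 of 3 mice, as were 6.82% of all tested genes, by a log2 difference of -0.09, -0.19 and -0.28 in mice a, b and c, while its fitted log2 fold change was -0.20 (SE 0.40). That gene runs opposite to most others over the DMSO libraries, with 22.2, 13.6 and 29.1 CPM in mice a, b and c. H2-Q6 and H2-Q7 were the scarcest class I genes, at 0.913 and 0.623 CPM per kb, with log2 fold changes of -0.11 (SE 0.59) and -0.09 (SE 0.63). Class I genes are near-identical copies in part, so the split of reads among the H2-Q and H2-T genes and the heavy chains is uncertain.

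Peptide transport and loading was described by Tap1 and Tap2, the transporter, Tapbp (tapasin), Tapbpl, a tapasin-related editor, and Erap1, the trimming aminopeptidase. Tapbp, the most abundant, had 115, 178 and 240 CPM with thiothixene, against 220, 325 and 94.4 CPM with DMSO. As for the heavy chains, DMSO from mouse b was the highest and DMSO from mouse c the lowest library. Its log2 fold change was -0.26 (SE 0.48), and those of Tap1, Tap2 and Tapbpl were -0.29 (SE 0.40), -0.19 (SE 0.52) and -0.11 (SE 0.34). Erap1 had 164, 110 and 119 CPM with thiothixene, against 112, 86.2 and 193 CPM with DMSO, with a log2 fold change of 0.00 (SE 0.36). Like B2m, Erap1 was highest in the mouse c DMSO library, and its GC content is 41.5%. Without the mouse b DMSO library Tapbp stood at 0.18 and Erap1 at -0.22. Exons of Tapbp share 149 bases with Zbtb22 on the same strand, and those of Erap1 share 834 bases with Cast on the other strand.

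The immunoproteasome holds Psmb8, Psmb9 and Psmb10 in place of the constitutive catalytic subunits, and Psme1 and Psme2 form its PA28 activator. All 5 were below 0, with a median of -0.66. Psmb8 had 85.6, 89.2 and 118 CPM with thiothixene, against 82.9, 233 and 77.0 CPM with DMSO. Psmb9 had 16.5, 30.6 and 33.1 CPM with thiothixene, against 38.6, 86.1 and 21.6 CPM with DMSO. In both the mouse b DMSO library was above all others. The log2 fold change of Psmb8 was -0.42 (SE 0.46), and without that library 0.29. That of Psmb9 was -0.86 (SE 0.52; 95% interval -2.06 to 0.34), with an unadjusted p of 0.137 in edgeR. Without the mouse b DMSO library it was -0.17, without that of mouse c -1.22. With offsets for GC content and length Psmb9 stood at -0.77, with an unadjusted p of 0.0338 in edgeR. The smallest adjusted p of the 33 genes in that fit was 0.978. Over all tested genes 562 had an unadjusted p under 0.05 there, against 256 in the main fit. Exons of Psmb9 and Tap1 share 212 bases on opposite strands, and the sources used here do not say whether the counting used strand.

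Psme1 had 82.4, 76.4 and 88.5 CPM with thiothixene, against 82.9, 207 and 100 CPM with DMSO. The thiothixene libraries lay close together, the mouse a DMSO library within them and that of mouse b far above. The log2 fold change was -0.66 (SE 0.38; 95% interval -1.53 to 0.22), and -0.15 without the mouse b DMSO library. Psme1 was lower with thiothixene in 3 of 3 mice, by a log2 difference of -0.01 in mouse a, -1.43 in mouse b and -0.18 in mouse c. Psmb10 averaged 37.7 ± 14.6 CPM with thiothixene and 63.3 ± 64.9 CPM with DMSO, and Psme2 72.9 ± 15.4 and 102 ± 75.6 CPM (SD, n = 3 each). Their log2 fold changes were -0.74 (SE 0.75) and -0.49 (SE 0.50), and without the mouse b DMSO library they were 0.50 and 0.31.

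The list named constitutive proteasome holds 16 genes, many of them ring subunits that the immunoproteasome shares. It was also highest, by median deviation, in the mouse b DMSO library, at 0.75, and lay between -0.30 and 0.01 in the other libraries. In the mouse c DMSO library the list stood at 0.01, where the immunoproteasome and PA28 genes stood at -0.58. The replaced subunits Psmb5, Psmb6 and Psmb7, summed per kb, were lowest in that library, at 92.9 CPM per kb. So were Psmb8, Psmb9 and Psmb10, at 36.0 CPM per kb. Of the 16 genes 15 were below 0, with a median of -0.42, and 0 passed the adjusted test. Psma6, Psmb1 and Psma4, alpha and beta ring subunits with the smallest p of that list, had log2 fold changes of -0.59 (SE 0.33), -0.55 (SE 0.33) and -0.53 (SE 0.33). Without the mouse b DMSO library those 3 genes stood at -0.22, -0.27 and -0.26, and 7 of the 16 were below 0, with a median of 0.02. Psmb8, Psmb9 and Psmb10 together, set against Psmb5, Psmb6 and Psmb7 per kb, gave ratios of 0.319, 0.308 and 0.409 with thiothixene and 0.465, 0.435 and 0.387 with DMSO. The means were 0.345 ± 0.0554 and 0.429 ± 0.0393 (SD, n = 3 each), and the mouse c thiothixene library was above the DMSO library of that mouse, so the groups overlap.

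Nlrc5, the class I transactivator, had 69.2, 57.8 and 70.6 CPM with thiothixene, against 83.6, 31.7 and 54.3 CPM with DMSO. The mouse b DMSO library, the highest for 24 of the 33 genes, was the lowest for Nlrc5. The log2 fold change was 0.22 (SE 0.37; 95% interval -0.64 to 1.08), and without the mouse b DMSO library it was -0.07.

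Cd1d1 and Mr1 present lipids and vitamin B metabolites to innate-like T cells. Cd1d1 had 7.31, 12.2 and 10.5 CPM with thiothixene, against 7.68, 9.61 and 7.77 CPM with DMSO. Mr1 had 29.0, 24.4 and 17.5 CPM with thiothixene, against 21.1, 13.3 and 23.4 CPM with DMSO. Both stood above 0, at 0.26 (SE 0.36) and 0.29 (SE 0.35) on the log2 scale, with unadjusted p of 0.492 and 0.433 in edgeR, and in both the groups overlap. Without the mouse b DMSO library Cd1d1 stood at 0.37 and Mr1 at 0.08. With H2-Ob, Nlrc5 and Erap1 they are the 5 genes not below 0.

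Class I and class II were then set side by side. In each library the median deviation of the genes (log2 CPM minus the gene's mean over 6 libraries) was -0.39, -0.10 and 0.17 for class I with thiothixene, against 0.16, 0.85 and -0.58 with DMSO. For class II it was -0.53, 0.05 and 0.21 with thiothixene, against -0.01, 0.83 and -0.59 with DMSO. Both sides thus placed the 6 libraries in nearly the same order, from DMSO of mouse c at the bottom to DMSO of mouse b at the top. The class I minus class II difference was 0.14, -0.15 and -0.04 with thiothixene and 0.17, 0.02 and 0.01 with DMSO, and the groups overlap. H2-K1 and H2-D1 summed per kb were 66.6 ± 12.0 times the summed class II chains with thiothixene and 66.9 ± 13.2 times with DMSO (SD, n = 3 each). The pooled within-treatment SD, 0.54 for class I and 0.58 for class II on the log2 scale, was larger than either side's median fold change. The deviations were wider among the DMSO libraries, at -0.58 to 0.85 for class I, than among the thiothixene libraries, at -0.39 to 0.17.

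**Figure D3:**
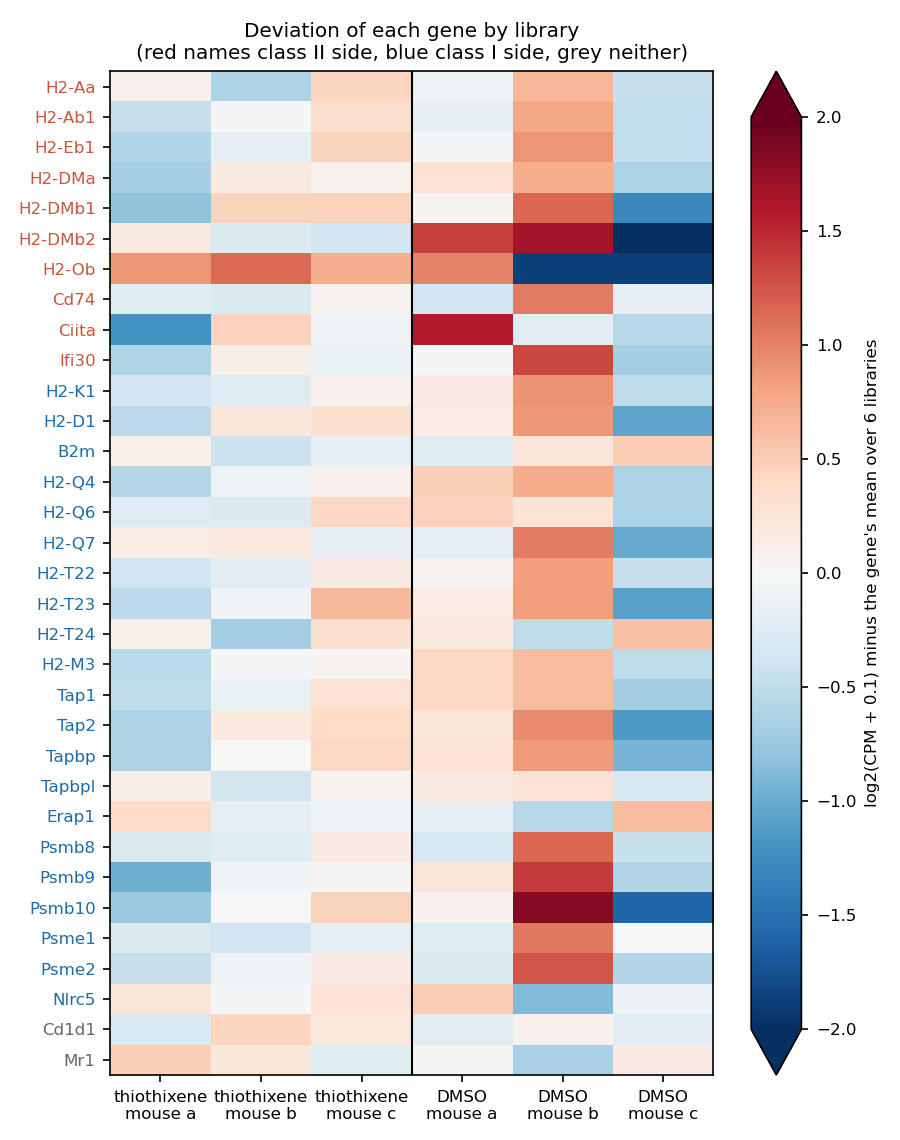
Deviation of the 33 tested genes in each library, as log2(CPM + 0.1) minus the gene's mean over 6 libraries, with colours ending at 2 in either direction (blue below the mean, red above), thiothixene left of the line. The mouse b DMSO library is the highest for 24 of 33 genes and that of mouse c the lowest for 17, while B2m, H2-T24, Erap1, Nlrc5 and Mr1 are among those that depart from that pattern.

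The class II median was above 0 without the mouse b DMSO library or without both libraries of mouse b. The class I median was above 0 only without both libraries of mouse b. Without any 1 thiothixene library, the mouse a DMSO library or both libraries of mouse a, the medians stayed below 0. They were -0.50 to -0.24 for class I and -0.48 to -0.10 for class II. Without the mouse b DMSO library the median was -0.01 for class I and 0.17 for class II. Without the mouse c DMSO library the medians were -0.59 for class I and -0.58 for class II. Without both libraries of mouse b they were 0.10 and 0.22, and without both of mouse c -0.78 and -0.74. With the mouse b and mouse c DMSO libraries both left out they were -0.16 and -0.03. There 21 of 33 genes were below 0, against 46.1% of all tested genes. No gene of the 33 passed the adjusted test in any of these fits.

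Within a mouse, with 1 library a treatment and no test, the 33 genes mostly lay on the same side of 0, but not on the same side in every animal. In mouse a 26 of 33 were lower with thiothixene, against 52.1% of all tested genes, and the median log2 difference was -0.55. In mouse b 27 were lower, against 49.4% of all tested genes, with a median of -0.80. In mouse c 5 were lower, against 48.1%, and the median was 0.70. The class I and class II medians were -0.55 and -0.57 in mouse a, -0.82 and -0.94 in mouse b, and 0.62 and 0.86 in mouse c. Over all tested genes the medians were -0.03, 0.01 and 0.05. H2-T24 and Psme1, 2 of the 33, were lower with thiothixene in 3 of 3 mice, where 6.82% of all tested genes were.

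**Figure D4:**
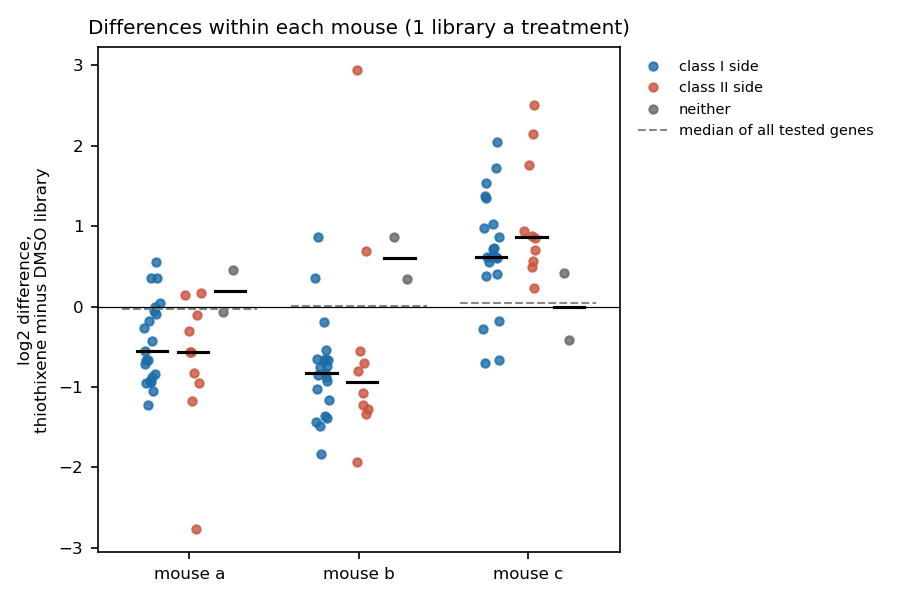
Log2 difference of each tested gene within each mouse, thiothixene library minus DMSO library, with 1 point a gene, bars at the median of each class and dashes at the median of all tested genes. Class I and class II lie together below 0 in mice a and b (medians -0.55 and -0.57, then -0.82 and -0.94) and above 0 in mouse c (0.62 and 0.86).

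Upstream and accessory genes of the pathway gave no adjusted call either. Among 10 genes of interferon gamma signalling 6 were below 0, and Ifngr1, the ligand-binding receptor chain, had 109, 82.2 and 84.7 CPM with thiothixene, against 159, 145 and 149 CPM with DMSO. All its thiothixene libraries were below all DMSO libraries, as in 2.77% of all tested genes. The log2 fold change of Ifngr1 was -0.71 (SE 0.26, 95% interval -1.32 to -0.11), with an unadjusted p of 0.0261 in edgeR, adjusted p 1. Its log2 fold change was -0.74 without the mouse b DMSO library and -0.72 without that of mouse c. Irf1, a transcription factor below that receptor, stood at -0.54 (SE 0.35) with overlapping groups. Of 13 genes induced by interferon gamma 8 were tested, and all 8 were below 0, against 54.7% of all tested genes. Their median was -0.72. The GTPase genes Iigp1 and Gbp3 stood at -1.73 (SE 0.72) and -0.85 (SE 0.37), and the chemokine gene Cxcl10 at -1.86 (SE 0.84) with no more than 2.22 CPM in any library. Their unadjusted p were 0.0429, 0.0499 and 0.0549 in edgeR. Without the mouse b DMSO library their log2 fold changes were -2.13, -0.80 and -1.89, and without that of mouse c -0.81, -0.70 and -1.57. In 3 of the 8 genes, Gbp3 and Cxcl10 among them, all thiothixene libraries were below all DMSO libraries, as in 2.77% of all tested genes. Class II chains, which interferon gamma also induces, had a median of -0.14. The whole class II side had a median of -0.30, and the immunoproteasome and PA28 genes one of -0.66. Whether interferon gamma signalling had a part in these values was not tested.

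Among the 7 class II processing proteases 3 were below 0, with a median of 0.04, and Lgmn, Ctsd and Ctsh stood on the log2 scale at -0.37 (SE 0.32), 0.43 (SE 0.44) and -0.22 (SE 0.36). Of the 7 factors that bind the X and Y boxes 6 were below 0, with a median of -0.16: Rfxap and Rfxank, RFX subunits, stood at -0.57 (SE 0.48) and -0.39 (SE 0.55) and Nfya, an NF-Y subunit, at 0.28 (SE 0.31). Marchf8, a ubiquitin ligase that removes class II from the surface, stood at 0.43 (SE 0.32, unadjusted p of 0.211 in edgeR). All its thiothixene libraries were above all DMSO libraries, as in 3.88% of all tested genes. In mouse a the libraries were nearly equal, at 88.8 CPM with thiothixene and 88.7 CPM with DMSO. Without the mouse b DMSO library Marchf8 stood at 0.20. Its relative Marchf1 stood at -0.32 (SE 0.44) and Cd83, which opposes Marchf1, at -0.09 (SE 0.35). The class I chaperones Calr, Canx and Pdia3 stood at -0.13 (SE 0.34), 0.06 (SE 0.31) and -0.23 (SE 0.29). Of 7 genes of the type I interferon receptor and its factors 6 were below 0, with Irf7, Irf9 and Ifnar2 at -0.81 (SE 0.52), -0.27 (SE 0.29) and -0.22 (SE 0.32). Of 6 genes that restrain class II 2 were below 0. Il10ra, a chain of the interleukin 10 receptor, stood at -0.73 (SE 0.35), Il10 at -0.80 (SE 0.81) and Tgfbr1 at 0.23 (SE 0.44).

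The labelled cell type was checked against 8 macrophage markers, 7 of which were tested and all below 0, with a sum of 9260 to 11100 CPM with thiothixene and 9810 to 17200 CPM with DMSO. Adgre1 ranged over 957 to 1160 CPM with thiothixene and 1090 to 1490 CPM with DMSO, and Csf1r over 1140 to 1200 and 1200 to 1900 CPM. Itgam was listed at or near 0 in every library, where the annotation used here places 3450 bases of its exons under another gene on the same strand. Other presenting cells could lend class II transcripts. Of 8 dendritic cell markers 3 were tested, Cd209a was at 0 and Flt3 at no more than 0.0493 CPM, and the list summed to 18.6 to 32.4 CPM with thiothixene and 9.47 to 17.4 CPM with DMSO. Itgax made up the larger part of that sum in every library; macrophages also express it, and it was at 15.7 to 28.7 CPM with thiothixene and 6.87 to 14.1 CPM with DMSO (log2 fold change 1.09, SE 0.42). The dendritic cell marker Clec9a, too scarce to be tested, had 6, 4 and 1 counts with thiothixene, against 17, 2 and 40 counts with DMSO. Of 8 B lineage markers 4 were tested, and Ms4a1 and Pax5 were at 0 in all libraries. Their sum over the 8 markers was 5.79 to 8.78 CPM with thiothixene and 8.71 to 14.5 CPM with DMSO. Neutrophil markers summed to 161 to 202 CPM with thiothixene and 198 to 413 CPM with DMSO, the highest in the mouse b DMSO library, and their part in the genes' values was not tested. T and NK markers stayed under 1 CPM in sum in every library. Of 6 stromal markers 5 were tested, Lum was at 0, and the sum was 55.3 to 290 CPM with thiothixene and 95.5 to 164 CPM with DMSO.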

How the data were processed

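RNA-seq libraries of 3 mice, each with 2 µM thiothixene and with DMSO, were grouped by the treatment label. Raw whole-number counts were deposited by the authors for each library, with 56691 gene rows and 5 rows naming no gene. Those 5 rows stayed out of library sizes. The row for reads assigned to no feature held 43.07% to 44.35% of all counts. The submitters' processing notes name mm10, STAR 2.7.11b, Trim Galore 0.6.10, FastQC 0.11.8 and DESeq2 1.44; which program counted, with which strand setting and annotation release, is not given in the sources used here. Symbols, exon lengths, GC content and positions came from a GENCODE annotation of GRCm38: 52073 identifiers matched without version and 4618 did not. Gene counts were 10472349 to 22297520 per library.

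edgeR 4.0.16 (R 4.3.3) was fitted to all genes passing its expression filter (robust quasi-likelihood, TMM, treatment as the sole term, Benjamini-Hochberg at 0.05). CPM uses TMM-scaled library sizes. SE is the size of the log2 fold change over the root of F. Deviations use a prior count of 2. The fit was tested on simulated data. Replicates are separate mice. The shared mouse pairs libraries across treatments. Their deviations from group means correlated at -0.131, 0.318 and -0.301 for mice a, b and c. Between libraries of different mice the correlations ran from -0.411 to 0.486, a range that holds all 3 same-mouse values. The highest was between thiothixene of mouse a and DMSO of mouse c. The genes, lists and tests were chosen with earlier results of these data known. Values per library are given for chains, Cd74, transactivators, the most abundant gene of each role and the 3 of smallest p on each side of 0; other lists are named by their 3 of smallest p, of which 1 is not reported here. Alternatives were the mouse as a replicate block, RLE, other filters, DESeq2 1.42.0 and libraries left out. Chosen after the data were seen were GC and length offsets (splines, 5 degrees of freedom) and leaving out the mouse b and mouse c DMSO libraries, where the lone DMSO library is assumed to vary like the others.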

Additional observations from a re-analysis of the deposited data

How the results depend on the processing

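The number of antigen presentation genes called stayed at 0 in every alternative run, with 31 to 34 tested. Over all genes edgeR called 1 without a low-count filter and DESeq2 called 2 (named after the values were seen, Stra6l in both and Dio2 in DESeq2). With the mouse as a replicate block 26 of 33 genes were below 0, against 46.3% of all tested genes. The medians were -0.23 for class I and -0.26 for class II, and no call changed. RLE gave -0.30 and -0.32, DESeq2 -0.30 and -0.33. Leaving out libraries gave -0.78 to 0.10 for class I and -0.74 to 0.22 for class II in place of -0.29 and -0.30. Single genes changed sign in 85 of 558 gene values recomputed, and 473 kept their sign.

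Leaving out a library or a mouse gave log2 fold changes for class II genes of -0.55 to 0.53 (H2-Aa), -0.60 to 0.32 (H2-Ab1), -0.87 to 0.26 (H2-Eb1), -0.70 to 0.01 (H2-DMa), -0.73 to 0.65 (H2-DMb1), -0.75 to 0.18 (Cd74), -1.59 to 0.72 (Ciita) and -1.0 to 0.15 (Ifi30). For class I genes it gave -0.89 to 0.00 (H2-K1), -0.65 to 0.39 (H2-D1), -0.65 to 0.25 (H2-Q6), -0.45 to 0.65 (H2-Q7), -0.77 to 0.10 (H2-T22), -0.81 to 0.52 (H2-T23) and -0.44 to 0.07 (H2-T24). It gave -0.78 to 0.35 (Tap2), -0.88 to 0.18 (Tapbp), -0.33 to 0.15 (Tapbpl), -0.29 to 0.47 (Erap1), -0.84 to 0.35 (Psmb8), -1.52 to 0.50 (Psmb10), -0.94 to 0.31 (Psme2) and -0.07 to 0.62 (Nlrc5). Other pathway genes gave -0.33 to 0.29 (Calr), -0.13 to 0.44 (Canx), -0.54 to 0.20 (Ctsh), -0.88 to 0.46 (Rfxank), -0.66 to 0.16 (Marchf1), -0.30 to 0.11 (Cd83), -1.42 to 0.23 (Il10), -0.13 to 0.69 (Tgfbr1), -0.49 to 0.02 (Irf9) and -0.43 to 0.01 (Ifnar2).

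With the mouse b and mouse c DMSO libraries left out, values of opposite sign were 0.15 (H2-Aa), 0.18 (H2-Ab1), 0.16 (H2-DMb1), -0.07 (H2-Ob), 0.26 (Cd74), 0.13 (B2m), 0.31 (H2-Q7), 0.26 (Psmb8), 0.02 (Psme1), 0.19 (Psme2) and -0.32 (Nlrc5). For other genes they were 0.24 (Pdia3), 0.42 (Calr), -0.03 (Ctsd), 0.02 (Ctsh), 0.08 (Rfxank), 0.07 (Cd83), 0.05 (Psmb1) and 0.17 (Psma4). The replicate block gave 0.03 (H2-DMb1) and 0.14 (H2-Q7). Offsets for GC content and length gave 0.00 (H2-DMb1), 0.05 (H2-T23) and -0.05 (Erap1), and with the replicate block 0.04 (H2-DMb1), 0.00 (H2-D1), 0.09 (H2-Q7), 0.03 (H2-T23) and -0.04 (Erap1). Erap1, at 0.00, was also on the other side of 0 with RLE (-0.01), the filter on CPM (-0.01) and DESeq2 (-0.00). The cause of these shifts was not tested. Depth limits H2-Oa, H2-Ob, H2-DMb2 and Ciita. Without the mouse b DMSO library, the shallowest, 13 of 33 genes were below 0, against 28 of 33 in the main fit. With the mouse c DMSO library left out as well, 21 of 33 were.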
